A study of Sus scrofa with 6 samples.

Results

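Asparagine synthetase (ASNS) and a set of stress response genes were followed across whole pig embryos that did or did not carry a paternal genome. The genes were chosen by symbol: ASNS and ATF3 of the amino acid response, the cytosolic chaperone HSPA8, the endoplasmic reticulum (ER) chaperones HYOU1 and DNAJB9, and SESN3. Of these 6 genes, 5 were found among the 1780 genes of the count table. Each of the 5 had more than the 10 reads in total that were required and passed the filter on low counts, as did 807 genes in all. DNAJB9, an ER-resident co-chaperone, was not analysed here and counts as not measured. The members were chosen with results of the same comparison known, ASNS for its difference between the groups, so their values below are a description. No p-value is printed for a member, and whether a member was called is given only by the rule used for all genes, with nothing read from it.

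Cells that run short of an amino acid, or that accumulate unfolded protein in the ER, phosphorylate the translation factor eIF2α, and the transcription factor ATF4 is then made. ATF4 and its partners switch on amino acid synthesis and transport genes, with ASNS as a standard readout, and other stress regulators such as ATF3. Unfolded protein in the ER also raises chaperones such as HYOU1 through ATF6 and XBP1, and heat or cytosolic misfolding acts through HSF1 on the HSP70 family. ASNS transfers an amide group from glutamine to aspartate to form asparagine, and it can be induced by ATF4 with or without an ER chaperone response.

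All 6 embryos were taken at embryonic day 21 from Landrace x Yorkshire x Duroc (LYD) pigs, and each was used whole for 1 library. Controls (n = 3) were untreated wild-type embryos, and how they were conceived is not described in the labels. Parthenotes (n = 3) developed from oocytes activated by 2 direct-current pulses of 1.2 kV/cm without sperm, so that all of their chromosomes were maternal. Each of 2 surrogate gilts, 12 months old, received 200 parthenogenetic embryos in the oviducts, so if all 3 parthenotes came from these transfers, at least 2 of them shared a gilt. The dams of the controls are not given, and p-values measure the spread between these 6 embryos only. Effects of a missing paternal genome and of conception, oocyte handling, dam, sex or stage cannot be told apart in this design.

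Each library held 1193714 to 1484193 reads in the table, whose genes lie almost wholly on chromosome 9. Levels are given as counts per 1000000 of these reads (CPM) after TMM scaling, a correction for differences in library composition, and are compared between embryos and not between genes, whose lengths were not used. Across all 807 tested genes, 42 were called at an adjusted p under 0.05 in edgeR's quasi-likelihood test (5.20%), 13 higher and 29 lower in parthenotes. The median log2 fold change of all tested genes was 0.02. The most abundant gene of the table took 8.29% to 20.8% of the reads of a library. Without it, the log2 fold change of ASNS was 1.22. By a chi-square of raw counts, in which abundant genes weigh most, control 1 and parthenote 1 were least like the others of their groups. The most abundant gene took 20.8% of the reads in control 1, against 8.29% and 8.47% in controls 2 and 3. The log2 fold change of ASNS was 1.25 without control 1 and 1.22 without parthenote 1.

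ASNS (ENSSSCG00000015340) lies on chromosome 9 of Sscrofa11.1 at positions 77318341 to 77336290, and its RefSeq span overlaps no other RefSeq gene. It had 958, 879 and 972 CPM in control 1, 2 and 3, and 2242, 2381 and 1975 CPM in parthenote 1, 2 and 3. The lowest parthenote was thus above the highest control, and the libraries of each group lay close together. The highest control was 1.11-fold above the lowest, and the highest parthenote 1.21-fold above the lowest. The mean was 936 ± 50.2 CPM in controls and 2199 ± 206 CPM in parthenotes (SD, n = 3 each). On the log2 scale the difference was 1.23 ± 0.10 (SE, 95% interval 1.01 to 1.45), or 2.35-fold, the sixth place from the top among the 807 genes. In bulk RNA from a whole embryo, more cells that express a gene and more RNA per cell cannot be told apart.

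The other measured gene of the amino acid response set was ATF3, a stress-induced transcription factor that ATF4 activates and that also answers to many other signals. ATF3 (ENSSSCG00000015595, chromosome 9, 130772259 to 130829678) had 223, 210 and 224 CPM in controls 1, 2 and 3. In parthenotes 1, 2 and 3 it had 166, 440 and 152 CPM. Parthenotes 1 and 3 thus lay below all controls and parthenote 2 above all of them, at 2.65 and 2.89 times the level of parthenotes 1 and 3. The controls spanned only a 1.07-fold range. The log2 fold change of 0.21 ± 0.37 (95% interval -0.64 to 1.06) averages over these opposite positions, and without parthenote 2 it was -0.46. The biological coefficient of variation of ATF3, the spread between replicates beyond counting error, was 31.4%, above that of 94.3% of the tested genes. The same measure was 10.6% for ASNS, above that of 16.9% of the genes.

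Parthenote 2 had at least 2 times the level of both other parthenotes in 12 of the 807 tested genes (1.49%). ATF3 was among them, and so was PTGS2, which encodes the inducible cyclooxygenase of prostaglandin synthesis. PTGS2 had 498 CPM in parthenote 2, against 122 and 188 CPM in parthenotes 1 and 3. HBB, the adult-type beta globin gene and the only red cell marker measured, was also among the 12, at 575 CPM against 167 and 102 CPM. Controls 1, 2 and 3 had 873, 1226 and 2065 CPM of HBB, all above parthenote 2. Others of the 12, named after their values were seen, were NNMT, LAX1 and APOA4. ASNS was also highest in parthenote 2, by 1.06 and 1.21 times over parthenotes 1 and 3. Of the members, only ATF3 had parthenote 2 apart from the others by 2 times or more. Only 1 of the 9 red cell markers listed was in the table, so HBB does not give the blood content by itself. The part of blood content in the ATF3 level of this embryo was not tested.

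**Figure D1:**
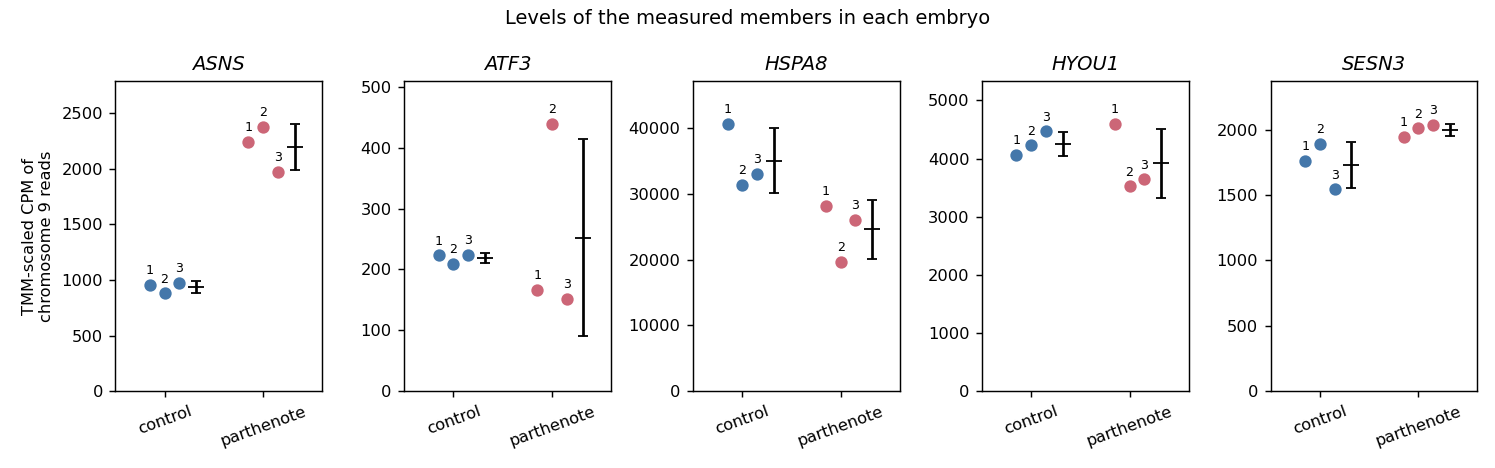
TMM-scaled CPM (linear axes from 0) of the 5 measured genes in each embryo. Points are embryos, numbered by replicate, with controls in blue and parthenotes in red, and black bars give the mean ± SD of 3. ASNS sits between 1975 and 2381 CPM in parthenotes and between 879 and 972 CPM in controls, while ATF3 is high in parthenote 2 alone.

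HSPA8 encodes the constitutive HSC70 chaperone, which folds new proteins, uncoats clathrin vesicles and carries substrates to lysosomes. Unlike the inducible HSP70 genes, it is expressed at a high level in unstressed cells. HSPA8 (ENSSSCG00000015140, chromosome 9, 49982278 to 49986760) had 40707, 31453 and 33068 CPM in controls 1, 2 and 3. It had 28218, 19646 and 26039 CPM in parthenotes 1, 2 and 3. All 3 parthenotes lay below the lowest control, and the lowest value was that of parthenote 2, in which ATF3 was highest. The means were 35076 ± 4943 and 24635 ± 4455 CPM (SD, n = 3 each), and the log2 fold change was -0.51 ± 0.16 (95% interval -0.88 to -0.14). HSPA8 has processed copies and close relatives elsewhere in mammalian genomes, and no source used here says how reads that match several places were counted, so its level is uncertain.

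HYOU1, an ER chaperone of the HSP110 and GRP170 family that is induced in the unfolded protein response and in hypoxia, did not separate the groups. HYOU1 (ENSSSCG00000015106, chromosome 9, 46264929 to 46277056) had 4059, 4225 and 4467 CPM in controls 1, 2 and 3, and 4597, 3519 and 3641 CPM in parthenotes 1, 2 and 3. Parthenote 1 was above all controls, and parthenotes 2 and 3 were below all of them. The log2 fold change was -0.12 ± 0.12 with a 95% interval of -0.40 to 0.16. Without parthenote 2 the value was -0.04, and without parthenote 1 it was -0.25.

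SESN3 encodes a sestrin, a family that restrains the growth kinase mTORC1 when leucine or energy is low. SESN3 is best known as a target of FOXO factors, while its relative SESN2 is the ATF4 target. SESN3 (ENSSSCG00000037015, chromosome 9, 27207239 to 27279205) had 1763, 1893 and 1545 CPM in controls 1, 2 and 3, and 1946, 2012 and 2039 CPM in parthenotes 1, 2 and 3. The parthenotes lay above all controls by a narrow margin, since parthenote 1 was close to control 2. The log2 fold change was 0.21 ± 0.09 (95% interval -0.005 to 0.42), or 1.15-fold.

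By the rule used for all genes, 1 of the 5 measured members was called in edgeR's test, ASNS, beside 5.20% of all tested genes. Of the other 4, 0 were called there, 1 (HSPA8) had an unadjusted p under 0.05, as 21.7% of all tested genes had, and DESeq2 called that one, beside 9.14% of the genes to which DESeq2 gave an adjusted p. The groups did not overlap in 3 of the 5, with ASNS and SESN3 higher and HSPA8 lower, beside 28.0% of all tested genes. The members thus did not move one way: ASNS, ATF3 and SESN3 had positive log2 fold changes and HSPA8 and HYOU1 negative ones, and the sign of ATF3 turned without parthenote 2.

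Ratios of reads within a library do not depend on scaling between libraries. For each 1000 reads of SESN3, controls 1, 2 and 3 had 544, 464 and 629 reads of ASNS, and parthenotes 1, 2 and 3 had 1152, 1184 and 969. For each 1000 reads of HYOU1 there were 236, 208 and 218 ASNS reads in controls, and 488, 677 and 542 in parthenotes. For each 1000 reads of HSPA8 there were 23.5, 27.9 and 29.4 in controls, and 79.5, 121 and 75.8 in parthenotes. ASNS lay higher relative to each of these genes in every parthenote than in any control. Since ASNS was chosen for its difference between the groups, this was largely set by the choice and describes the same values again. Relative to 1000 reads of ATF3, ASNS had 4297, 4195 and 4333 reads in controls, and 13512, 5418 and 12987 in parthenotes, with parthenote 2 nearest to the controls.

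With the group means removed, the log2 levels of ATF3 and HSPA8 had a Pearson r of -0.75 over the 6 libraries, and those of ASNS and ATF3 one of 0.72. These are descriptions over 6 points that share their scaling, and both include parthenote 2. ATF3 deviated there by 0.97 from the parthenote mean on the log2 scale, HSPA8 by -0.31 and ASNS by 0.12. The r of ASNS with HYOU1 was 0.10 and with SESN3 -0.50.

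The question whether other stress genes shared the change of ASNS was put to 7 lists of 217 genes in all. They cover the amino acid and integrated stress response, ER chaperones, the secretory pathway, cytosolic chaperones, sestrins and DNA damage sensors, nutrient sensing, and immediate early or inflammatory genes. Because the table holds mainly 1 chromosome, only 38 of them were in it and 35 were tested, of which 30 are not members. Most textbook targets of ATF4, such as DDIT3, TRIB3, CHAC1 and PSAT1, were not analysed here. Of the 30 genes, 0 were called higher in edgeR's test (1.61% of all genes were) and 1 was called lower (3.59% of all genes were). An unadjusted p under 0.05 was found for 4 of the 30, 2 in each direction, and for 175 of all 807 genes (21.7%). DESeq2 called 1 of the 30 higher and 1 lower, and limma-voom, which called 4.83% of all genes, called 0 higher and 1 lower. Their median log2 fold change was -0.10, against 0.02 for all tested genes, with 10 above 0 and 20 below. Without parthenote 2 the median was -0.04, with 14 above 0 and 16 below, and without control 1 it was -0.02. The groups did not overlap in 6 of the 30, with parthenotes above in 2 (13.8% of all genes) and below in 4 (14.3%).

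Besides ASNS and ATF3, the amino acid and integrated stress response list had PPP1R15B and SLC36A4 among the tested genes. PPP1R15B, the constitutive eIF2α phosphatase subunit that reverses the stress signal, had 2200, 1972 and 2043 CPM in controls and 1981, 1855 and 1844 CPM in parthenotes. The groups overlapped, with a log2 fold change of -0.13 ± 0.08. SLC36A4, an amino acid transporter, had a log2 fold change of -0.10 ± 0.14. The list's median was 0.05, and 1 of its 4 tested genes, ASNS, was called. The median had no fixed sign: it was -0.14 without parthenote 2 and 0.21 without parthenote 3. It was also below 0 in limma-voom (-0.04), with the replicate block (-0.03) and on the authors' normalized values (-0.02).

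All 4 tested ER chaperone and unfolded protein response genes lay below 0, under each scaling too, but 1 of them lay above 0 without control 3, parthenote 2 or parthenote 3. In edgeR's test 0 were called in either direction, 0 of the 3 that are not members had an unadjusted p under 0.05, and DESeq2 also called 0. SERPINH1, the collagen chaperone HSP47, averaged 13235 ± 262 CPM in controls and 12720 ± 387 CPM in parthenotes (SD, n = 3 each), with a log2 difference of -0.06 ± 0.10. PDIA4, an ER disulfide isomerase induced by ER stress, had one of -0.03 ± 0.14 and, like HYOU1, was highest in parthenote 1, at 9599 CPM against 7069 and 6962 CPM. EDEM3, which trims mannose from misfolded glycoproteins for degradation, had one of -0.13 ± 0.07, with all parthenotes below all controls. The intervals of these 3 genes ended at 0.16, 0.29 and 0.04.

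In the secretory pathway list 1 of 9 tested genes was called, TOR1AIP2, which encodes an activator of torsin ATPases in the ER membrane. TOR1AIP2 had 671, 741 and 731 CPM in controls and 562, 439 and 505 CPM in parthenotes, so the groups did not overlap. It fell by 0.51 on the log2 scale (SE 0.12), with an adjusted p of 0.0387 by edgeR. This call did not hold with library totals as the only scaling, nor in 4 of the 6 fits that leave out a library, those without control 2 or 3 and without parthenote 2 or 3. There the adjusted p was 0.0797 to 0.156, within a range of 0.00338 to 0.156 over 16 alternatives. Its RefSeq span overlaps that of TOR1AIP1, and the library kit does not mark strand, so reads of the overlap cannot be assigned with certainty. TOR1AIP1 stood at -0.16 ± 0.13 on the log2 scale and TOR3A, a torsin family ATPase, at -0.15 ± 0.16. The other 6 genes of the list, which serve protein translocation, glycosylation and vesicle transport, ran from -0.26 to 0.07.

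The cytosolic chaperone list had 5 tested genes, 4 of them below 0, and 0 were called in edgeR's test. The median log2 fold change was -0.30, which is the value of DNAJB13, but -0.02 without control 1. DNAJB13 had few reads, 36, 15 and 11 in controls and 16, 23 and 16 in parthenotes. Of the 4 that are not members 1 had an unadjusted p under 0.05, CRYAB, which encodes the small heat shock protein αB-crystallin. Controls had 100.1, 104 and 92.9 CPM of CRYAB, and parthenotes 66.5, 84.4 and 76.7 CPM. The log2 difference was -0.38 ± 0.16, with an adjusted p of 0.209 in edgeR. Its span overlaps HSPB2 and another gene in RefSeq. CHORDC1, a co-chaperone of HSP90, and DNAJC2, which binds ribosomes, had log2 fold changes of -0.09 ± 0.11 and 0.06 ± 0.10. DNAJB13, at 16.1 CPM in controls and 13.1 CPM in parthenotes on average, had the widest interval of the list.

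Among sestrins, p53 targets and DNA damage sensors 0 of 5 tested genes were called in edgeR's test, and none of the 4 that are not members had an unadjusted p under 0.05. ATM, the kinase that senses DNA breaks, had a log2 fold change of 0.07 ± 0.11, and H2AX, the histone variant it marks, one of -0.13 ± 0.14. EI24 and DDIAS, which are linked to the p53 and DNA damage responses, had values of -0.33 ± 0.15 and -0.35 ± 0.16.

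Nutrient sensing genes gave 0 calls among 6 in edgeR's test, with 1 unadjusted p under 0.05. That gene was PDK4, a mitochondrial kinase that blocks pyruvate oxidation in fasting and is a FOXO target. Controls had 169, 173 and 187 CPM of PDK4, and parthenotes 258, 225 and 246 CPM, with no overlap. The log2 difference was 0.46 ± 0.12, and edgeR gave an adjusted p of 0.0698. DESeq2 called it (adjusted p = 0.0382, with 0.0382 to 0.207 over 16 alternatives). Its span overlaps ASB4 and another gene in RefSeq. As for TOR1AIP2, the kit does not mark strand, so reads of the overlap cannot be assigned with certainty. The log2 difference was 0.20 ± 0.11 for SIK3, a kinase of the AMPK family, and -0.13 ± 0.12 for LAMTOR1, which anchors mTORC1 signalling at the lysosome.

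Of the immediate early and inflammatory genes 2 were tested and 0 called in edgeR's test. PTGS2 had 108, 94.9 and 79.3 CPM in controls and 122, 498 and 188 CPM in parthenotes, with the highest log2 fold change of the 30 genes. The value was 1.52 ± 0.50 (95% interval 0.34 to 2.69), with an adjusted p of 0.144 by edgeR. It was 0.73 without parthenote 2, and 1.87 without parthenote 1, where edgeR called it (adjusted p = 0.0292, with 0.0292 to 0.399 over 16 alternatives). The span of PTGS2 overlaps PLA2G4A in RefSeq, and the kit does not mark strand, so reads of the overlap cannot be assigned with certainty. BIRC3, an inhibitor of apoptosis downstream of NF-κB, had a log2 fold change of 0.09 ± 0.08. IL6 and IL10 had too few reads to test. IL6 had 18, 6 and 7 reads in controls and 2, 2 and 3 in parthenotes, and IL10 had 4, 5 and 4 reads in controls and 5, 7 and 12 in parthenotes.

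**Figure D2:**
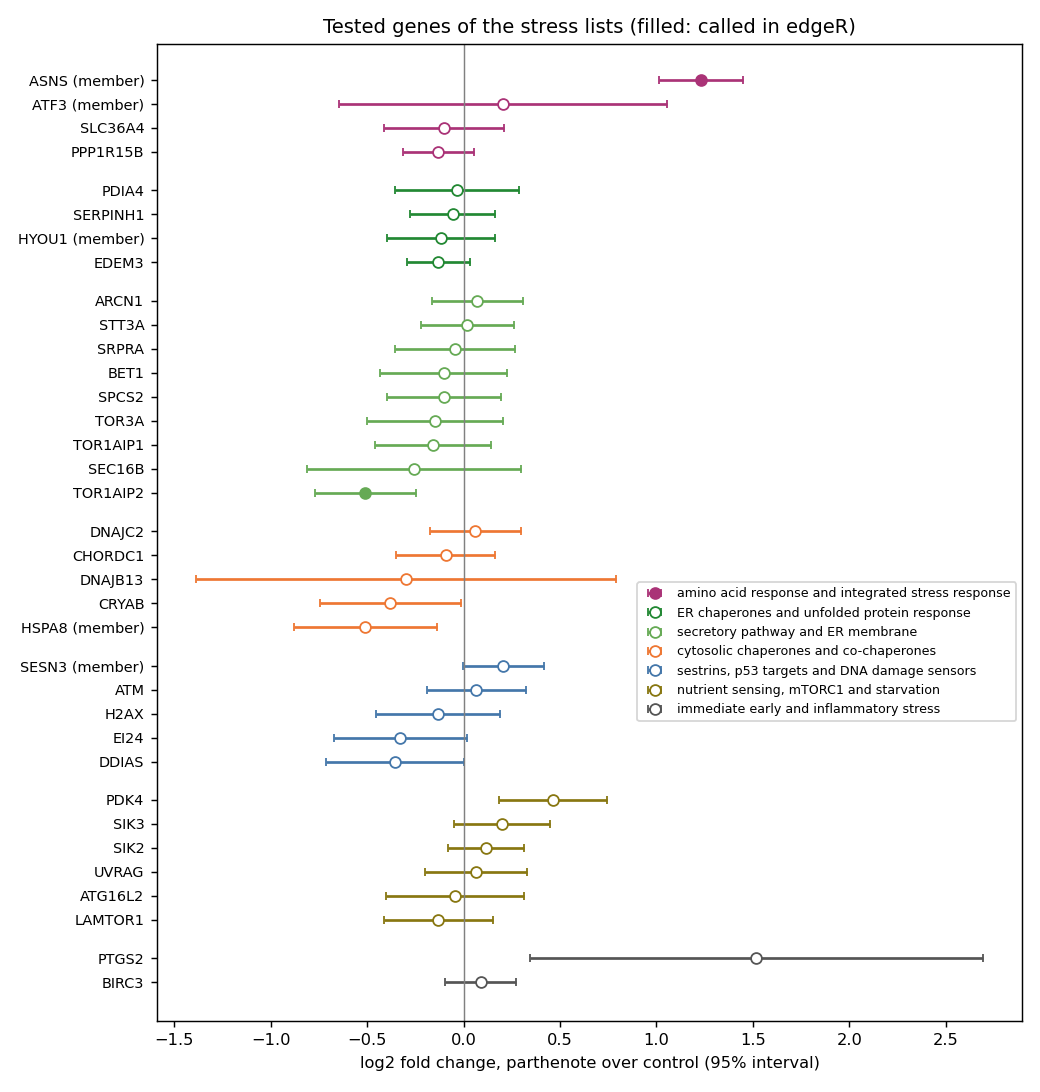
Log2 fold change of parthenote over control (x axis, with 95% intervals) for the 35 tested genes of the stress lists, coloured and grouped by list. Filled points were called in edgeR's test: ASNS at 1.23 and TOR1AIP2 at -0.51. PTGS2 has the highest value, 1.52, and an interval from 0.34 to 2.69.

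The nearest tested genes with a single position in RefSeq were examined to see whether genes beside ASNS differed likewise. Such a position was found for 603 of the 807 tested genes, so a nearer gene without one would be missed. The 5 taken on each side lie 111812 to 1557814 bp away. Their log2 fold changes ran from -0.43 to 0.46 with a median of 0.24, 8 above 0 and 2 below. All tested genes had a median of 0.02, with 423 above 0 and 384 below. In edgeR's test 0 of the 10 were called, while 5 had an unadjusted p under 0.05, beside 21.7% of all tested genes. DLX5 had the highest value, 0.46 ± 0.13, and DLX6 stood at 0.34 ± 0.13. In DLX5, DLX6, MIOS and GLCCI1 all parthenotes lay above all controls, and in SLC25A13 all lay below. The groups overlapped in the other neighbours. Over all tested genes, parthenotes lay above in 13.8% and below in 14.3%. The nearest on each side were TAC1, a tachykinin precursor gene, at 0.27 ± 0.32, and COL28A1, a collagen gene, at 0.19 ± 0.39, both with few reads. The sign of COL28A1 turned without control 1 or parthenote 1.

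A pair of these neighbours has roles near those of ASNS and was singled out after the values were seen. SLC25A13 encodes the mitochondrial aspartate-glutamate carrier, which exports the aspartate that ASNS uses. It had 2485, 2163 and 2152 CPM in controls and 1991, 1406 and 1661 CPM in parthenotes, with no overlap. The log2 difference was -0.43 ± 0.13, with an adjusted p of 0.108 by edgeR. MIOS, a subunit of the GATOR2 complex that relays amino acid supply to mTORC1, had 923, 793 and 822 CPM in controls and 964, 973 and 1161 CPM in parthenotes. For MIOS the log2 difference was 0.29 ± 0.10, with an adjusted p of 0.152 by edgeR. In the fit with a replicate block, which called 6.82% of all genes, 2 of the 10 passed, SLC25A13 (adjusted p = 0.0290, with 0.0290 to 0.296 over 16 alternatives) and GLCCI1 (adjusted p = 0.0340, with 0.0339 to 0.271), and DESeq2 called the same 2. GLCCI1, a gene induced by glucocorticoids, had a log2 fold change of 0.46 ± 0.13.

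**Figure D3:**
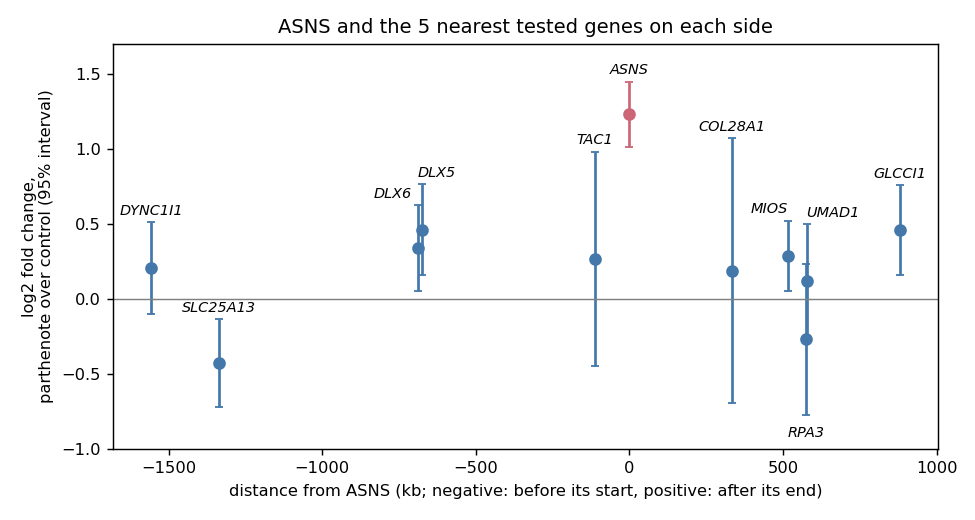
Log2 fold change of parthenote over control with 95% intervals (y axis) against the distance between gene spans in kb (x axis). ASNS is in red, and the 5 nearest tested genes with a RefSeq position on each side are in blue. ASNS stands at 1.23, and the 10 neighbours lie between -0.43 and 0.46.

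Among 656 other tested genes with a symbol, the 5 whose log2 CPM followed ASNS most closely over the 6 libraries were AMPH (Pearson r 0.996), MAP6 (0.987), ROBO3 (0.986), IL19 (0.979) and STX6 (0.979). These r values are dominated by the difference between the groups, and 27 of the 656 genes reached 0.9. IL19 had only 69 reads in all, with 5, 3 and 6 in controls and 16, 21 and 18 in parthenotes. AMPH, a synaptic vesicle protein gene, had 347, 342 and 341 CPM in controls and 473, 491 and 462 CPM in parthenotes. Like ASNS, AMPH was highest in parthenote 2 and lowest of the parthenotes in parthenote 3, but its log2 fold change was 0.47 ± 0.10. Of the stress genes, PDK4 followed ASNS most closely (r 0.93, rank 17), while TOR1AIP2 and EDEM3 had r values of -0.93 and -0.96. SESN3 ranked 106, ATF3 312, HYOU1 475 and HSPA8 590.

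Sums of markers of some embryonic tissues also differed between the groups. The marker lists were chosen with earlier results of these data known, so their calls are a description. Over all tested genes, 1.61% were called higher and 3.59% lower. The 7 neuronal markers measured summed to 7964 to 9213 CPM in controls and 10739 to 12609 CPM in parthenotes, and 5 of the 7 were called higher in edgeR's test. AMPH, MAP6 and ROBO3 are among the 5, of which the count fell to 1 with library totals only or without control 2 or control 3, and to 2 without parthenote 2 or parthenote 3. The 3 kidney markers summed to 1852 to 2182 CPM in controls and 483 to 556 CPM in parthenotes, and all 3 were called lower. The macrophage and lysosome markers GPNMB and CTSC summed to 8370 to 9612 CPM in controls and 5177 to 6576 CPM in parthenotes, and both were called lower, though 0 of the 2 were called without control 1, control 2 or parthenote 3, and 1 without control 3, without parthenote 2 or without a filter. HBB ran from 873 to 2065 CPM in controls and from 102 to 575 CPM in parthenotes. The sums for liver and yolk sac, skeletal muscle, endothelium and matrix overlapped between the groups. Of the immune markers, CD3D was at 0 in all libraries and CD3E at no more than 2.35 CPM. The part of these shifts in the levels of ASNS, HSPA8 or SESN3 was not tested.

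The values of the members were recomputed under 16 alternatives. ASNS stayed between 1.17 and 1.29 on the log2 scale and was called in all 16. Since ASNS was chosen for its difference in these same libraries, its calls were largely set by the choice. From 17 (without control 2) to 68 (DESeq2) genes were called in all. HSPA8 stayed between -0.62 and -0.37 and was called in 2 of 16: with DESeq2, and without a filter on low counts, where 4.19% of all genes were called. SESN3 (0.13 to 0.27) and HYOU1 (-0.25 to -0.04) kept their sign in all 16 and were called in 0. ATF3 ran from -0.46 to 0.45, kept its sign in 15 and was called in 0.

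**Figure D4:**
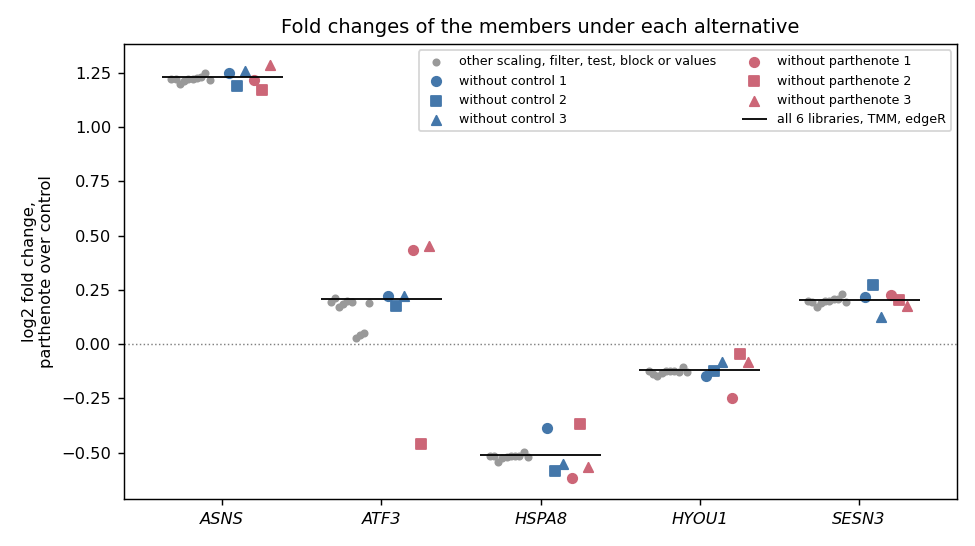
Log2 fold change of parthenote over control (y axis) of each measured member under 16 alternatives. Black lines give the value with all 6 libraries in edgeR, grey points other scalings, filters, tests, values or the replicate block, and coloured symbols the fits with 1 library left out. ASNS stays between 1.17 and 1.29, and ATF3 crosses 0 when parthenote 2 (red square) is left out.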

How the data were processed

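Per the labels' protocols, total RNA of whole embryos was DNase-treated and sequenced with the TruSeq RNA v2 kit, which does not mark strand. The submitters' processing notes name HISAT2 2.1.0, SAMtools 1.9 and Sscrofa11.1. Which tool and annotation gave the counts is not given in the sources consulted. In the table that the authors deposited, values are raw counts per Ensembl gene. The authors also deposited a normalized signal value per gene for each sample (1190 genes), equal to whole reads times 1 factor per sample within 0.01 reads. These values served only as an alternative, with limma on log2(value + 1). Positions are from RefSeq's table of Sscrofa11.1.

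The tests used edgeR 4.0.16 (R 4.3.3). A filter with filterByExpr (minimum count 10, minimum total 15) kept 807 genes with 99.9% of the counts. Libraries were scaled with TMM, parthenotes were compared with controls by a robust quasi-likelihood test, and p-values were adjusted by Benjamini and Hochberg's method over all 807 genes, with a threshold of 0.05. SE and 95% intervals come from that fit. The alternatives were other scalings, filters, DESeq2 1.42.0, limma-voom (limma 3.58.1), the replicate block, no most abundant gene, and each of the 6 libraries left out in turn. The titles number controls and parthenotes alike, without stating a shared litter or day. Over 807 genes, libraries numbered 1, 2 and 3 deviated from their group means together (r of 0.365, 0.272 and 0.147), so the block pairs them, on the evidence of the data and not of the labels. Pair 3 is weakly set apart, since control 3 and parthenote 2 had an r of 0.145.

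The members, lists and alternatives were chosen with earlier results of these data known. Named genes are the members, called genes of the stress lists or the most abundant tested gene of a list with none. They also include the nearest tested gene with a RefSeq position on each side of ASNS and the 5 genes most like ASNS. Others were named after their values were seen. A planned promoter search was not run, since no sequences were used.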

Additional observations from a re-analysis of the deposited data

How the results depend on the processing

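The number of called genes, 42 in the main fit, was 68 in DESeq2 and 55 in the paired fit with a replicate block, and ran from 17 to 55 over the fits with 1 library left out; the cause was not tested. Of the 30 stress genes that are not members, 0 were called higher; this became 1 in DESeq2 (PDK4) and ran from 0 to 1 with a library left out (PTGS2 without parthenote 1). The 1 called lower, TOR1AIP2, became 0 with library totals as the only scaling, and ran from 0 to 2 with a library left out (SEC16B joined it without parthenote 1). COL28A1 turned to -0.05 without control 1 and -0.28 without parthenote 1, with 0.43 as its highest value in these fits. The block changed the calls of SLC25A13, GLCCI1 and IL19 (adjusted p = 0.0684, with 0.0324 to 0.169 over 15 alternatives), and of none of the other named genes among 73 compared. No scaling moved the median of all genes by over 0.1. MAP6, ROBO3 and AMPH also lost their calls with library totals only (adjusted p 0.0515 to 0.0973). The members had at least 217 reads in each library, and the part of depth in their calls was not tested.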
